A study of Mus musculus with 4 samples.

Results

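The 42 genes described here belong to the cell cycle and proliferation programme: replication licensing factors, mitotic cyclins and kinases, and proteins of the kinetochore, spindle and cleavage furrow. They were taken as a fixed list, and 41 of the 42 were measured, of 19938 genes in all. *Ccnb1*, the cyclin B1 gene, had no probe set that named it alone and has no value here. RNA from mouse subcutaneous adipose tissue was hybridized to 4 Affymetrix MoGene 1.0 ST arrays, 1 per group, and each array held RNA pooled, by the labels, from 4 to 5 mice that had been picked for RNA quality. WT-CT and WT-HFD mice were NAPE PLD lox/lox, and cKO-CT and cKO-HFD mice were AP2 Cre NAPE PLD lox/lox. All mice were C57Bl6, 16 weeks old and carried the floxed *Napepld* alleles, so the WT groups differ from the cKO groups by the Cre transgene. *Napepld* encodes NAPE-PLD, an enzyme that makes *N*-acylethanolamines, and the AP2 (*Fabp4*) promoter that drives Cre is used for adipocytes and is known to be active in some other cells, macrophages among them. CT groups received the AIN93M control diet and HFD groups the D12492 high-fat diet.

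A cell that enters the cycle first loads the MCM helicase onto replication origins, copies its DNA in S phase, and then builds cyclin B and Cdk1 activity to pass through mitosis. E2F factors drive the S phase genes, and the DREAM and MuvB complexes, with B-Myb and FoxM1, act on the G2 and mitosis genes through CHR and CCAAT elements. Mature adipocytes do not divide, and the cycling cells of an adipose depot are known to include progenitors, macrophages and endothelial cells. In bulk tissue, fewer cycling cells and less RNA per cycling cell cannot be told apart.

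With 1 array per group there is no replicate, no error and no test. A gene was called higher or lower where 2 arrays differed by 1.5-fold, which is 0.585 on the log2 scale. All levels are log2 values and all differences log2 ratios of 2 arrays. Precision is limited by how few arrays there are. Where 4 levels are listed for a gene, they come from the CT arrays first, WT-CT and then cKO-CT, followed by WT-HFD and cKO-HFD. The tissue carried its markers: all 12 adipocyte genes measured lay above background on every array, with *Adipoq*, the adiponectin gene, at a log2 level of 12.44 to 12.70. Pancreas and muscle genes varied from array to array. For sums over a marker list, levels were taken off the log2 scale, added and put back on it, so the highest genes weigh most. The sum of 12 pancreatic acinar markers was 10.9 on WT-CT and 8.88 to 9.08 on the other arrays. That of 14 skeletal muscle markers ran from 11.6 on cKO-HFD to 15.5 on WT-HFD. The part of these tissues in the results was not tested. *Napepld* had log2 levels of 8.31, 7.78, 8.01 and 7.94. Where its probes lie relative to the deleted part is not known here, so these levels do not check the labels.

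Most of the proliferation genes sat at the low end of the arrays. The 95th percentile of 1027 olfactory receptor (*Olfr*) genes served as background, at a log2 level of 5.39, 5.28, 5.42 and 5.50 in that array order. Of the 41 genes, 11, 13, 13 and 15 lay above it, where 59.4%, 60.1%, 58.3% and 57.1% of all genes did. A group of 16 was above background on at least 1 array and 25 were on none. The 10 above it on all 4 arrays were *Ccnb2*, *Aurka*, *Aurkb*, *Rrm1*, *Mcm4*, *Mcm5*, *Mcm7*, *Pcna*, *Cdt1* and *Ube2c*. *Mki67*, *Ccna2*, *Cdk1*, *Plk1*, *Cdc20* and *Mcm2* were above it on some arrays. All 14 genes of the kinetochore, spindle and cytokinesis groups were below it throughout.

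**Figure D1:**
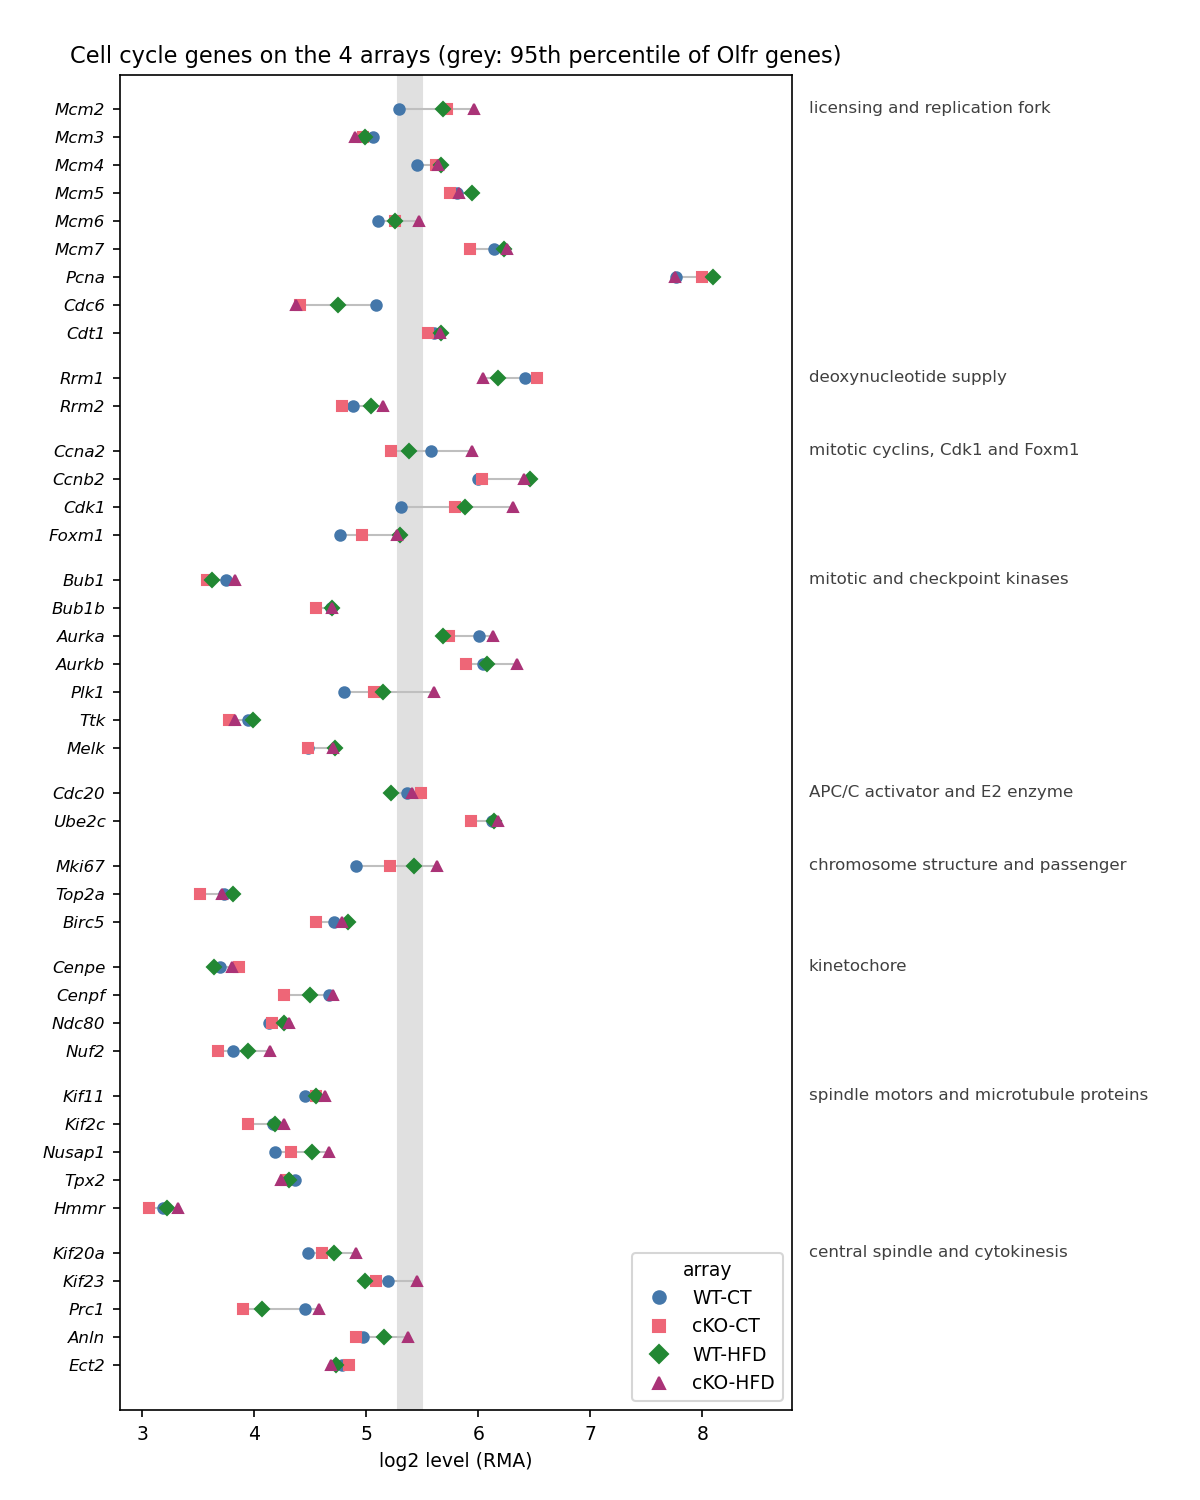
Log2 level of each of the 41 measured proliferation genes on the 4 arrays, grouped by role, with the *Olfr* background of each array. Each point is 1 array of pooled RNA, so there are no error bars. *Pcna* stands between 7.76 and 8.09, and 25 genes stay under the background on every array.

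*Cdk1*, the kinase that drives entry into mitosis, spread the most over the arrays. WT-CT gave a log2 level of 5.31, cKO-CT gave 5.79, WT-HFD gave 5.88 and cKO-HFD gave 6.31, a range of 0.997. It was under background on WT-CT alone. *Plk1*, a kinase of centrosome maturation and mitotic exit, had 4.80, 5.07, 5.15 and 5.601 and passed background on cKO-HFD alone. *Mki67*, which encodes the Ki-67 protein that coats mitotic chromosomes and marks cycling cells, had 4.91, 5.21, 5.42 and 5.63. All 3 genes were lowest on WT-CT, with cKO-CT next, WT-HFD above it and cKO-HFD highest. *Mcm2*, a subunit of the replicative helicase, had 5.29, 5.72, 5.68 and 5.96, also lowest on WT-CT and highest on cKO-HFD.

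None of these 4 genes reached 1.5-fold in any comparison that changed 1 factor. For *Cdk1*, the log2 ratio of cKO to WT was 0.48 on CT and 0.43 on HFD, and that of HFD to CT was 0.57 in WT and 0.52 in cKO. For *Plk1* the genotype ratios were 0.27 on CT and 0.45 on HFD, and the diet ratios 0.34 in WT and 0.53 in cKO. For *Mki67* they were 0.30 and 0.21 for genotype and 0.51 and 0.42 for diet. For *Mcm2* they were 0.42 and 0.28 for genotype and 0.39 and 0.25 for diet. The sign of every ratio follows from the choice of genes that are lowest on WT-CT and highest on cKO-HFD. Over both factors together, in cKO-HFD over WT-CT, *Cdk1* was higher by 0.997, *Plk1* by 0.80, *Mki67* by 0.72 and *Mcm2* by 0.67. This last comparison was added after the values had been seen. It uses the lowest and the highest of the 4 arrays for these genes, so its size is a description. All 4 genes lay under background on WT-CT.

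Upstream sequence is shown for these 4 genes, the members called higher in cKO-HFD over WT-CT, so they were picked after the values were seen. *Kif11*, *Kif20a*, *Nusap1*, *Ndc80* and *Mcm6* were also lowest on WT-CT and highest on cKO-HFD, and their sequence is not shown. Each run holds the 250 bases before the gene's start, 5′ to 3′ on the gene's strand, from RefSeq on GRCm38.p6. Capitals mark the letters TTTGAA (the core of a CHR element), CCAAT or its other-strand form ATTGG, and E2F letters. The places are chr10:69352913-69353162 (minus strand) for *Cdk1*, chr7:122159185-122159434 (plus) for *Plk1*, chr7:135716380-135716629 (minus) for *Mki67* and chr6:88898781-88899030 (minus) for *Mcm2*.
Cdk1: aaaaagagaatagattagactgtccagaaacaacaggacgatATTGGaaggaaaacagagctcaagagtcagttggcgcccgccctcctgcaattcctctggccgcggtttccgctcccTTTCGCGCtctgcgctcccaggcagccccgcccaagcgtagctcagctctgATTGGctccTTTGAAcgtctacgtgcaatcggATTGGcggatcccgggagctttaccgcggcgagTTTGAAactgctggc
Plk1: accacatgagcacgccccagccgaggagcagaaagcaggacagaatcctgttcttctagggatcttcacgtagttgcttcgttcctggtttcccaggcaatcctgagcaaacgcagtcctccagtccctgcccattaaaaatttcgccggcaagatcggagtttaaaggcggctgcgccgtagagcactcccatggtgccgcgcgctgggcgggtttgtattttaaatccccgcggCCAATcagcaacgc
Mki67: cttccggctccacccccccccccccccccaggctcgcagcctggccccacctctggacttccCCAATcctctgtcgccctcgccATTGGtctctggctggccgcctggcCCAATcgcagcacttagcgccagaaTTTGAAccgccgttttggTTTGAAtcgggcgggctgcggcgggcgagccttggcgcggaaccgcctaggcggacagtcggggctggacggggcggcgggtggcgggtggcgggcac
Mcm2: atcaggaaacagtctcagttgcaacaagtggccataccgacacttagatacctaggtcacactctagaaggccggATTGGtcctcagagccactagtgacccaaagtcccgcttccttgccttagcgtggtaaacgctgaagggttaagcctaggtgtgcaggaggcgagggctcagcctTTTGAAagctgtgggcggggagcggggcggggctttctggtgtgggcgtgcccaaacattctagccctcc

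*Cdk1* holds TTTGAA at 2 places, ATTGG at 3 and the E2F letters TTTCGCGC once. *Mki67* holds TTTGAA at 2 places and CCAAT or ATTGG at 3, and *Mcm2* holds each once. *Plk1* shows CCAAT here, and its TTTGAA begins 30 bases after the start, outside the printed run.

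The same letters were counted in the windows from 250 bases before to 50 bases after the start, on both strands, for the 36 of 42 genes with a RefSeq window. *Mcm4*, *Aurkb*, *Ccna2*, *Kif20a*, *Tpx2* and *Foxm1* had none. TTTGAA was in 20 of 36 windows (55.6%) against 18.1% of the windows of 27025 genes. CCAAT was in 27 (75%) against 37.9%, and both together in 17 (47.2%) against 7.12%. The E2F letters searched were TTTCGCGC, TTTGGCGC, TTTCCCGC and TTTGGCGG, which share letters with one another, and 8 windows (22.2%) held at least 1 against 2.42% of all. By role, TTTGAA was in 19 of 26 windows of genes outside replication and deoxynucleotide supply and in 1 of 10 within (*Mcm2*). E2F letters were in 6 of those 10 (*Mcm3*, *Mcm5*, *Mcm6*, *Mcm7*, *Cdt1* and *Cdc6*) and in 2 of the 26 (*Melk* and *Cdk1*). Among the genes with the same end arrays as *Cdk1* whose sequence is not shown, *Kif11* held TTTGAA and CCAAT, and *Ndc80* TTTGAA without CCAAT. *Mcm6* held CCAAT and E2F letters without TTTGAA, *Nusap1* held none of the letters, and *Kif20a* had no window. These are matches of letters and do not show that a factor binds, and base composition was not matched between the windows compared.

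Among the 9 licensing and replication fork genes, 1 call was made in the comparisons of 1 factor. In each of these comparisons, 1.04% to 3.16% of all genes were higher and 1.52% to 2.67% lower. *Cdc6*, which brings the helicase to origins, had log2 levels of 5.08, 4.40, 4.75 and 4.37. It was lower in both cKO arrays than in the WT array of the same diet, by a log2 ratio of -0.68 on CT and -0.38 on HFD. It lay under background on all 4 arrays. *Cdt1*, its partner in loading the helicase, ranged over only 0.12, the least of the 41 genes. *Pcna*, the sliding clamp of DNA polymerase, had 7.76, 7.99, 8.09 and 7.76, so WT-CT and cKO-HFD lay level and the other arrays above them. The helicase subunits *Mcm3*, *Mcm4*, *Mcm5*, *Mcm6* and *Mcm7* ranged over 0.16 to 0.36 between arrays. The 9 genes had a median genotype ratio of -0.05 on CT and -0.03 on HFD and a median diet ratio of 0.14 in WT and 0.07 in cKO. For deoxynucleotide supply, *Rrm1* and *Rrm2* encode the large and small subunits of ribonucleotide reductase. *Rrm1* had 6.42, 6.52, 6.17 and 6.04, both HFD arrays below both CT arrays, and *Rrm2* had 4.88, 4.78, 5.04 and 5.15, the reverse.

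The mitotic cyclins measured differed from *Cdk1* on the control diet: in cKO-CT over WT-CT, *Ccna2* had a log2 ratio of -0.36 and *Ccnb2* 0.04, where *Cdk1* had 0.48. *Ccna2*, cyclin A2, had log2 levels of 5.57, 5.22, 5.38 and 5.94. Its log2 ratio was 0.72 for cKO-HFD over cKO-CT, past 1.5-fold, and -0.20 for WT-HFD over WT-CT. *Ccnb2*, cyclin B2, had 5.99, 6.03, 6.46 and 6.40, and *Foxm1*, a transcription factor of mitotic genes, had 4.77, 4.96, 5.30 and 5.27. Both stood higher on the 2 HFD arrays than on the 2 CT arrays, with log2 ratios of 0.31 to 0.53 between diets, and neither passed 1.5-fold.

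The 7 mitotic and checkpoint kinases (*Aurka*, *Aurkb*, *Plk1*, *Ttk*, *Bub1*, *Bub1b* and *Melk*) act in spindle assembly, chromosome attachment and the checkpoint that delays anaphase. All 7 had log2 ratios above 0 in cKO-HFD over cKO-CT, from 0.06 to 0.53, where 52.9% of all genes and 74.7% of *Olfr* genes had one. In cKO-CT over WT-CT, 6 of 7 had ratios below 0, *Plk1* being the exception. There, 49.2% of all genes and 40.1% of *Olfr* genes had a ratio above 0. *Ttk*, *Bub1*, *Bub1b* and *Melk*, 4 of the 7, lay under background on every array. *Ttk*, at 0.06 in cKO-HFD over cKO-CT, had -0.016 after cyclic loess between the arrays, and *Melk* then had 0.087 in cKO-CT over WT-CT. None passed 1.5-fold in a comparison of 1 factor. *Aurka* had 6.004, 5.74, 5.69 and 6.13 and *Aurkb* 6.04, 5.89, 6.08 and 6.35, both highest on cKO-HFD. *Cdc20*, which activates the APC/C ubiquitin ligase, and *Ube2c*, its E2 enzyme, differed by at most 0.27 between any pair of arrays.

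*Top2a*, the topoisomerase that untangles chromosomes, had a mean of 3.72, 3.51, 3.81 and 3.71 and so did not follow *Mki67*. It rests on 2 probe sets, 1 with 4.62, 4.20, 4.78 and 4.61 and 1 that stayed between 2.81 and 2.83. *Birc5*, the chromosomal passenger survivin, ranged over 0.29. In the kinetochore, *Ndc80* and *Nuf2* form the arm that grips microtubules, *Cenpe* is a motor and *Cenpf* a coat protein. Their log2 ratios were all above 0 in cKO-HFD over WT-HFD, from 0.05 to 0.21, where 55.5% of all genes and 56.3% of *Olfr* genes had one. These kinetochore genes were below background on every array.

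The spindle genes *Kif11*, *Kif2c*, *Nusap1*, *Tpx2* and *Hmmr* had no call. In each of the 5 comparisons, 1.04% to 3.36% of all genes were higher and 1.52% to 3.41% lower. *Nusap1*, a microtubule bundler, ranged the widest of the spindle genes, with 4.18, 4.32, 4.52 and 4.66 in the order of *Cdk1*. Of the 5 cytokinesis genes, *Prc1*, which crosslinks the central spindle, had 4.45, 3.90, 4.07 and 4.58. Its log2 ratio was 0.68 for cKO-HFD over cKO-CT, past 1.5-fold, while all 4 levels were under background. *Kif23* and *Kif20a*, motors of the central spindle, *Anln*, the furrow scaffold anillin, and *Ect2*, the exchange factor for RhoA, did not pass 1.5-fold.

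Across the 41 genes, cKO-CT over WT-CT asks for the genotype difference on the control diet. No gene was higher, where 1.64% of all genes were, and *Cdc6* alone was lower, where 1.52% of all genes were. The median log2 ratio was -0.06, and 17 of 41 ratios were above 0, where 49.2% of all genes had one. This sign was not stable: among the 16 genes above background on at least 1 array the median was 0.071, and after cyclic loess it was -0.00072 with 20 of 41 above 0. The 1027 *Olfr* genes had the same median, -0.06. For WT-HFD over WT-CT, the diet difference in WT, no gene was called higher or lower, against 3.16% and 2.67% of all genes. The median was 0.08, with 28 of 41 above 0 against 49.2%, beside an *Olfr* median of 0.06.

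For cKO-HFD over cKO-CT, the diet difference in cKO, 2 genes were higher (*Ccna2* and *Prc1*), against 1.82% of all genes, and none lower, against 2.17%. The median was 0.25, with 33 of 41 ratios above 0, where 52.9% of all genes and 74.7% of the *Olfr* genes had one. The *Olfr* median was 0.15, so genes at background moved the same way on these arrays. After cyclic loess between the arrays the proliferation median was 0.19 and the *Olfr* median 0.08, and *Prc1*, at 0.58, was no longer called. The part of this drift in the result was not tested. For cKO-HFD over WT-HFD, the genotype difference on HFD, no gene was called, against 1.04% higher and 2.11% lower of all genes. The median was 0.09, with 26 of 41 above 0 against 55.5%, and the *Olfr* median was 0.03.

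**Figure D2:**
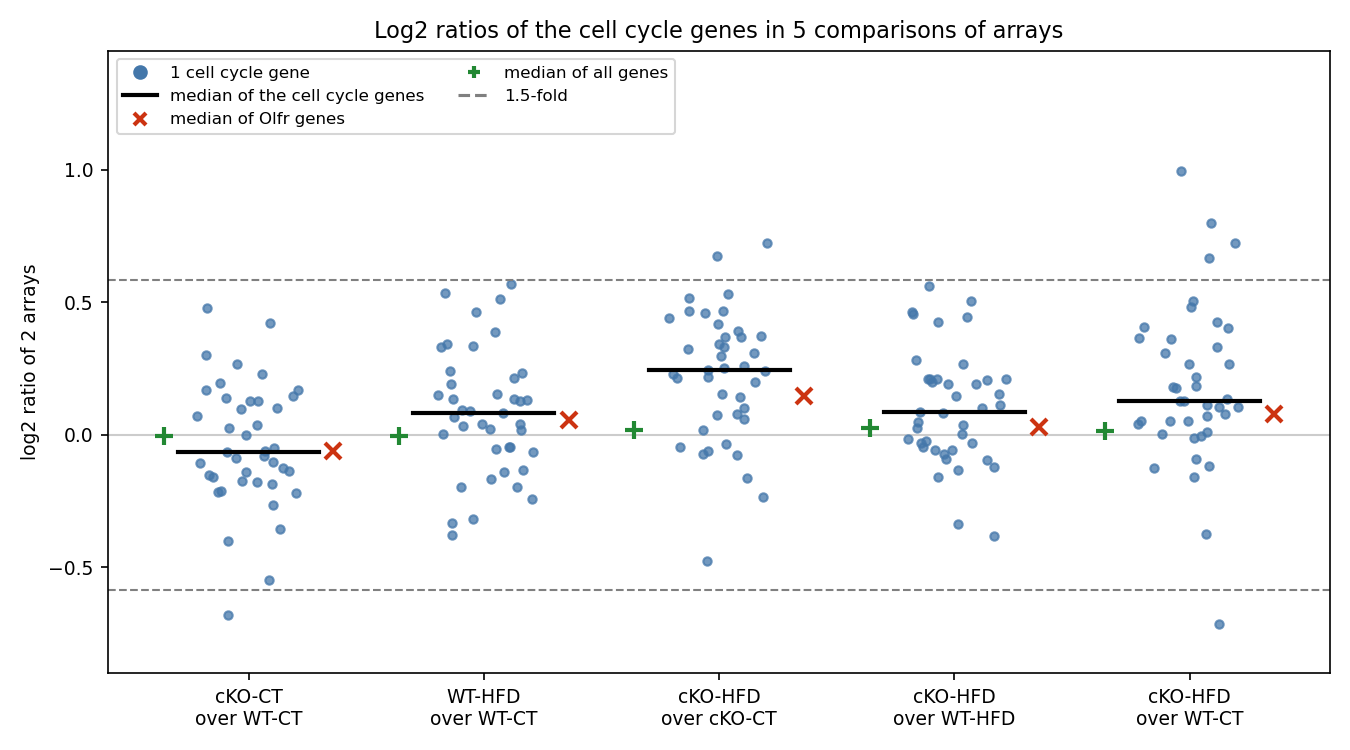
Log2 ratios of the 41 proliferation genes in the comparisons of 2 arrays, 1 point per gene, with the 1.5-fold size marked. In the 4 comparisons of 1 factor, 3 of 164 ratios pass it (*Cdc6*, *Ccna2* and *Prc1*). Of all genes, 1.04% to 3.16% were higher and 1.52% to 2.67% lower in each of these. *Cdc6* and *Prc1* lay under background on every array. The comparisons share arrays and are not independent.

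For cKO-HFD over WT-CT, which changes diet and genotype together, 4 genes were higher (*Cdk1*, *Plk1*, *Mki67* and *Mcm2*, 9.76% of the 41), against 3.36% of all genes. All 4 lay under background on WT-CT. *Cdc6* was lower, by -0.72, against 3.41% of all genes. The median was 0.13, with 33 of 41 above 0 against 52.2%, and the *Olfr* median was 0.08. Of the 5 comparisons, 3 use the WT-CT array and 3 the cKO-HFD array, so their ratios are not independent.

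The 11 replication and deoxynucleotide genes and the 30 others differed in their medians on the cKO-HFD array. In cKO-HFD over cKO-CT the 30 had a median of 0.30 with 26 above 0, and the 11 had 0.07 with 7 above 0. In cKO-HFD over WT-HFD the medians were 0.15 and -0.03. This division was not tested, and 21 of the 30 but 4 of the 11 lay below background on every array, where the *Olfr* drift was seen.

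By array, 24 of the 41 genes (58.5%) were highest on cKO-HFD, against 30% of all genes and 38.8% of *Olfr* genes. After cyclic loess 22 were. WT-HFD was highest for 10 (24.4%, against 19.8% of all genes and 28.2% of *Olfr* genes), cKO-CT for 4 (9.76%, against 22.7% and 10%) and WT-CT for 3 (7.32%, against 27.4% and 23%). The lowest array was cKO-CT for 19 (46.3%), against 25.9% of all genes and 43% of *Olfr* genes. It was WT-CT for 12 (29.3%, against 28.3% and 28%), cKO-HFD for 6 (14.6%, against 22.9% and 13.4%) and WT-HFD for 4 (9.76%, against 23% and 15.5%). The shares highest on cKO-CT and lowest on cKO-CT, WT-CT and cKO-HFD were thus within a few points of the *Olfr* shares. The order of *Cdk1*, from WT-CT through cKO-CT and WT-HFD up to cKO-HFD, was that of 7 genes (*Mki67*, *Cdk1*, *Plk1*, *Kif20a*, *Nusap1*, *Ndc80* and *Mcm6*), where 6.04% of all genes and 8.76% of *Olfr* genes had it. Counting only the ends, 9 genes (22%) were lowest on WT-CT and highest on cKO-HFD, adding *Kif11* and *Mcm2*, against 12.1% of all genes and 13.8% of *Olfr* genes. The order and the ends were picked from *Cdk1* and other genes counted here, after their values were seen. Both counts are thus raised by that choice and are descriptions. After cyclic loess, *Mcm6* was higher on cKO-CT than on WT-HFD and *Kif11* was highest on cKO-CT.

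**Figure D3:**
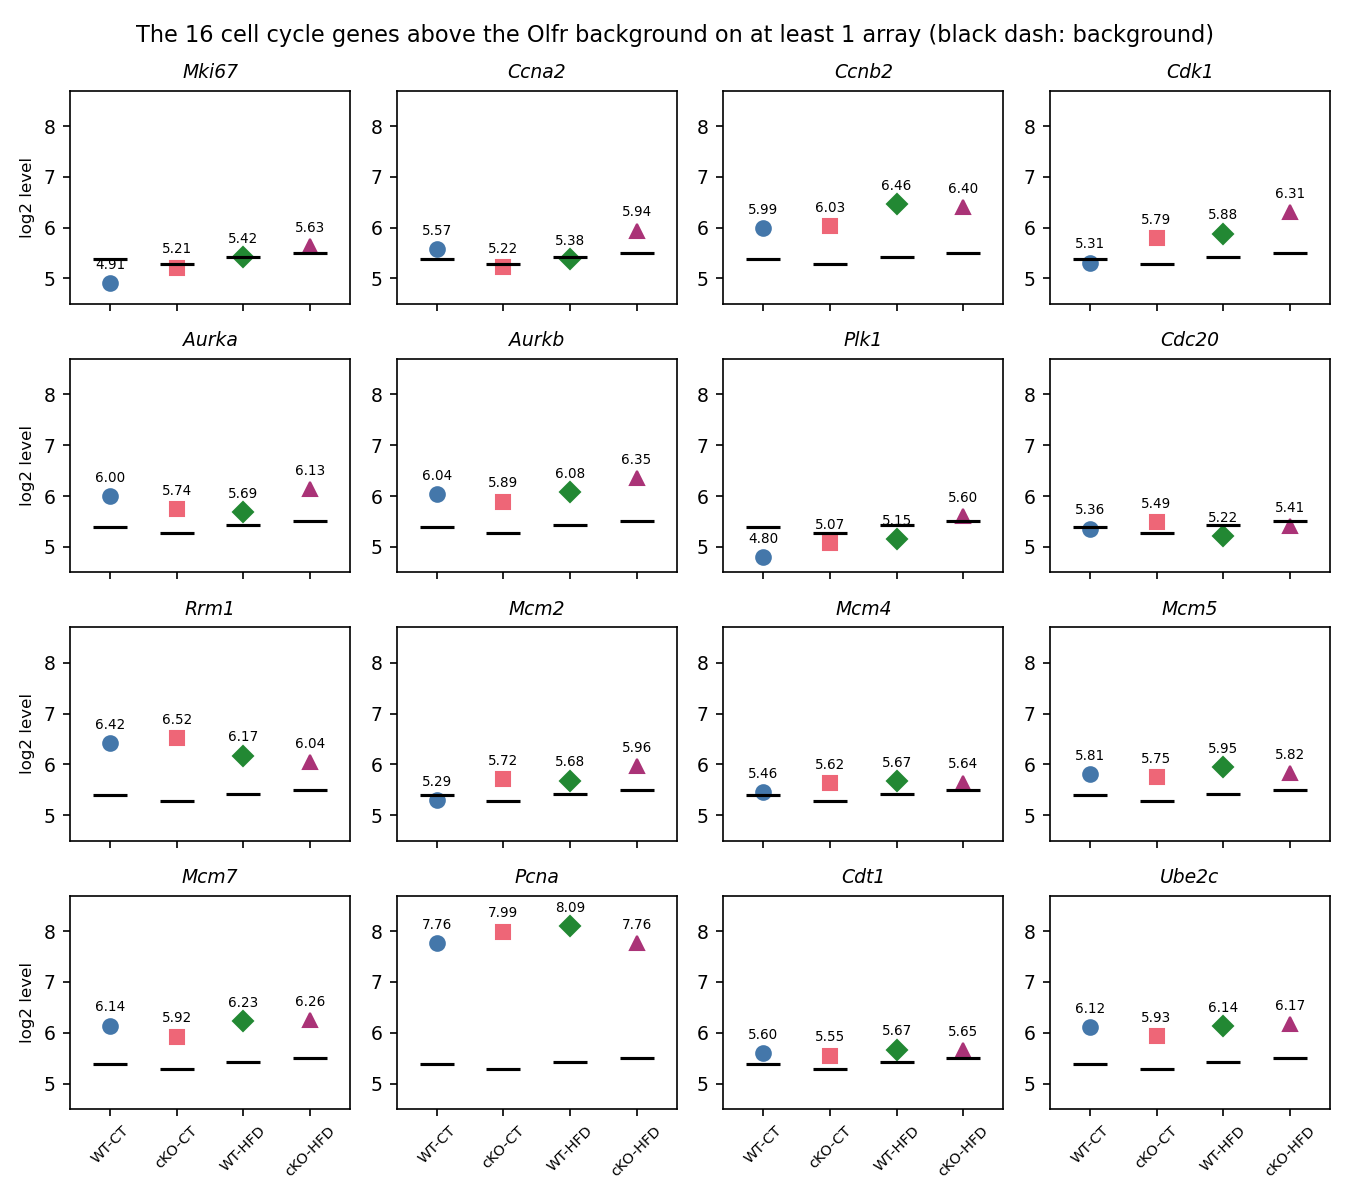
Log2 levels on the 4 arrays of the 16 proliferation genes that passed the *Olfr* background on at least 1 array, with that background as dashes. *Cdk1* climbs from 5.31 on WT-CT to 6.31 on cKO-HFD, and *Pcna* is level between these arrays at 7.76.

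The diet ratio in cKO minus the diet ratio in WT was largest for 5 genes. It was 1.05 for *Prc1*, 0.92 for *Ccna2*, 0.71 for *Aurka*, 0.61 for *Cenpf* and 0.57 for *Kif23*. Each of these 5 genes was lower on cKO-CT and WT-HFD than on the other arrays. That shape follows largely from choosing genes by this difference, and the share of all genes with it was not counted. *Pcna* had the lowest value, -0.56, with the opposite shape. With 1 array per group these differences were not tested. *Ccna2*, *Aurka* and *Pcna* lay above background on at least 1 array, and the other 3 did not.

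Other cell cycle genes were taken from lists chosen by function. Of the 57 other mitotic genes measured, 3 were higher in cKO-HFD over cKO-CT (*Cdca8*, *Sgo2a* and *Iqgap3*), 2 in cKO-HFD over WT-HFD (*Sgo2a* and *Smc2*) and 1 in WT-HFD over WT-CT (*Knl1*), against 1.82%, 1.04% and 3.16% of all genes. *Cdca8*, the passenger protein borealin, was the single gene lower, at -0.63 in cKO-CT over WT-CT, against 1.52% of all genes. In cKO-HFD over WT-CT, where 3.36% of all genes were higher, 5 of the 57 were: *Sgo2a* by 1.27, *Ncaph*, a condensin subunit, by 0.78, *Spc25*, a partner of *Ndc80*, by 0.65, *Cdca3* by 0.64 and *Gtse1* by 0.63. *Sgo2a*, a shugoshin that guards cohesion at centromeres, had 4.68, 5.20, 5.17 and 5.94 and so the shape of *Mcm2*. The list's medians were -0.05, 0.00, 0.20 and 0.13 in the 4 comparisons of 1 factor, with 47 of 57 ratios (82.5%) above 0 in cKO-HFD over cKO-CT, against 52.9% of all genes and 74.7% of *Olfr* genes. Only 16 of the 57 were above background on any array. *Cdca8*, *Iqgap3*, *Smc2*, *Knl1*, *Ncaph* and *Spc25* lay under it throughout, and *Sgo2a* passed it on cKO-HFD alone.

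The 46 other replication genes had medians of -0.01, -0.06, 0.04 and -0.02. *Uhrf1*, which maintains DNA methylation at the fork, had 5.12, 4.09, 4.12 and 4.31, lower by a log2 ratio of -1.02 in cKO-CT and -1.0004 in WT-HFD, each over WT-CT, but below background throughout. *Orc6*, an origin recognition subunit, had 6.75, 7.10, 6.48 and 6.47 and was lower by -0.63 in cKO-HFD over cKO-CT. In the list of 16 E2F, DREAM and B-Myb factors, *Lin9* was lower in cKO-HFD over cKO-CT by -0.61, below background. *E2f1*, an activating E2F, had 6.31, 6.58, 6.70 and 6.96, the order of *Cdk1*, and a ratio of 0.65 in cKO-HFD over WT-CT. The 16 factors had a median of -0.06 in that comparison, with 7 ratios above 0 and 9 below. *Mybl2*, the B-Myb gene, had 6.30, 6.08, 6.27 and 5.82, and a ratio of -0.48 there. The list's medians were 0.06, 0.01, -0.01 and -0.02 in the comparisons of 1 factor. Upstream of S phase, the 8 G1 cyclins and kinases had 1 call in the comparisons of 1 factor, *Ccne2* at 0.69 in cKO-HFD over cKO-CT and below background. In each of these comparisons, 1.04% to 3.16% of all genes were higher and 1.52% to 2.67% lower. *Ccnd1*, cyclin D1, had 7.60, 7.78, 7.78 and 7.98 without a call. Of the 12 Cdk inhibitors and pocket proteins measured, none was called in those comparisons. *Btg1*, an antiproliferative gene, had 9.43, 9.70, 9.89 and 10.04 and was higher by 0.61 in cKO-HFD over WT-CT.

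Markers of cell types that can divide in fat also differed between the arrays. All 9 endothelial markers were above background. Of these, 7 of 9 were lowest on WT-CT and highest on cKO-HFD, against 12.1% of all genes and 13.8% of *Olfr* genes. *Cdk1*, *Mki67*, *Plk1* and *Mcm2* had the same end arrays. *Pecam1*, *Cdh5*, *Emcn*, *Tie1* and *Egfl7* were lower on WT-HFD than on cKO-CT, unlike *Cdk1*, *Mki67* and *Plk1*. The endothelial markers summed, on the log2 scale as above, to 11.7, 12.1, 11.9 and 12.3 in the array order used throughout. In cKO-HFD over WT-CT, *Cdh5* was higher by 0.94, *Pecam1* and *Cldn5* by 0.73 and *Tie1* by 0.69. Of the 12 adipocyte markers, 5 (*Adipoq*, *Cidec*, *Lpl*, *Cd36* and *Lep*) were also lowest on WT-CT and highest on cKO-HFD. The 17 macrophage markers summed to 12.1, 12.6, 12.8 and 12.4. Of these, 15 of 17 were lowest on WT-CT, against 28.3% of all genes, and 0 highest on cKO-HFD, against 30% of all genes. The 9 stromal progenitor markers summed to 13.0, 13.3, 13.4 and 13.1, sums in which *Dcn*, at 12.40 to 12.75, weighs most. Single genes of this list differed more. In cKO-HFD over WT-HFD, *Pi16* was lower by -1.57 and *Dpp4* by -1.39, against 2.11% of all genes, and none was higher. In cKO-HFD over WT-CT, *Pdgfrb* was higher by 0.95 and *Thy1* by 0.59, against 3.36% of all genes. *Dpp4* was lower there by -0.91, against 3.41%. For lymphocytes, 8 T cell markers summed to 8.09, 7.999, 8.02 and 8.19, with 7 of 8 below background on every array, and 8 B cell markers to between 7.86 and 7.90. Of the B cell markers, *Cd79a*, under background throughout, was lower by -0.75 in cKO-CT and -0.62 in WT-HFD, each over WT-CT. Lower in these comparisons were 1.52% and 2.67% of all genes. The 8 epithelial markers summed to between 8.40 and 8.48 and the 3 erythroid markers to between 7.59 and 7.97. The part of these cells in the levels of the proliferation genes was not tested.

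**Figure D4:**
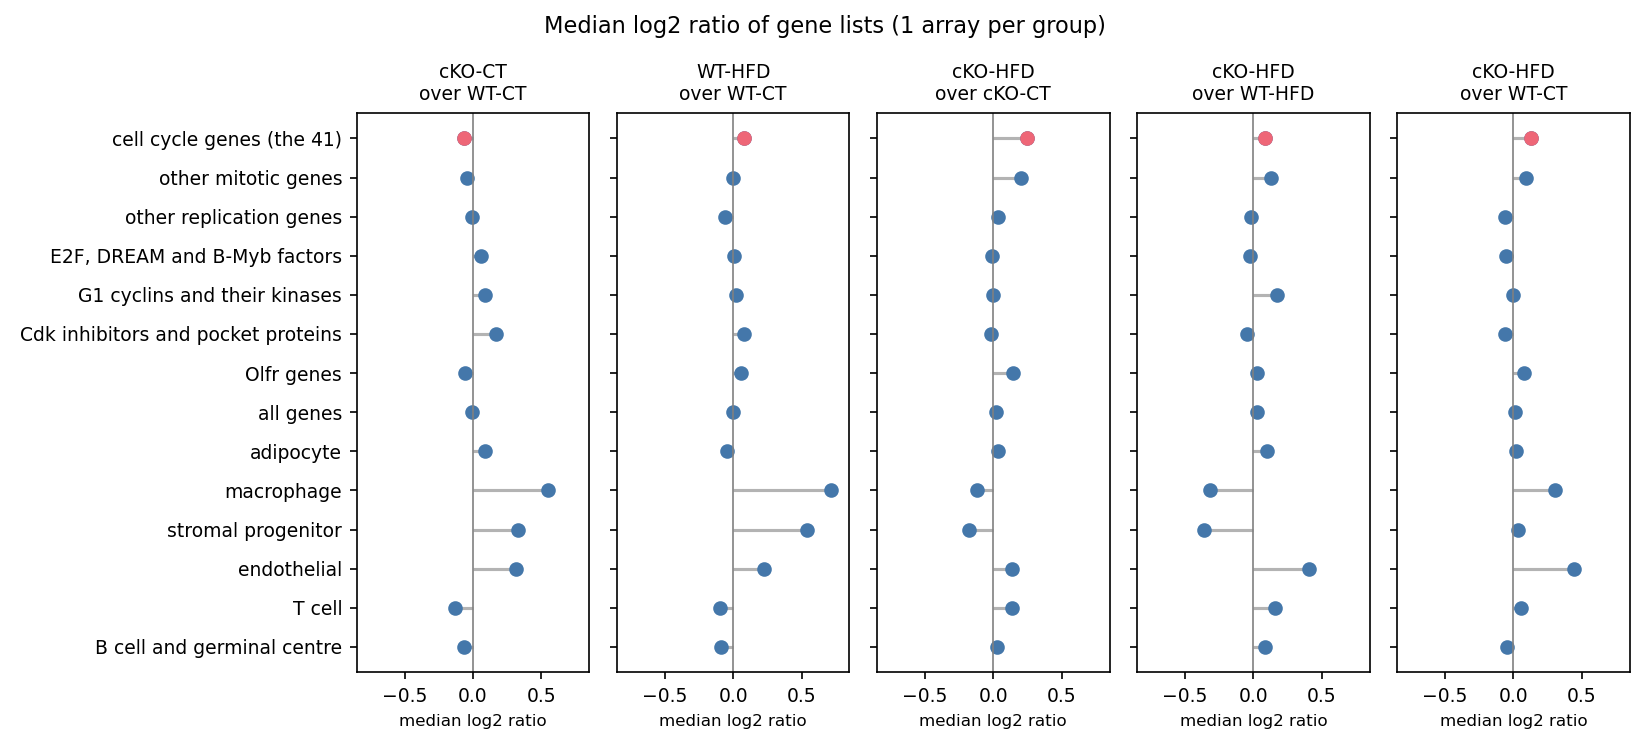
Median log2 ratio of the proliferation genes, the other cell cycle lists, the cell type lists and the *Olfr* genes in each comparison of 2 arrays. The proliferation median runs from -0.06 in cKO-CT over WT-CT to 0.25 in cKO-HFD over cKO-CT, where the *Olfr* median is 0.15.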

How the data were processed

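The authors deposited a log2 level for each probe set, made with RMA (background correction, quantile normalization across arrays and summary of probes). The processing notes name Affymetrix Expression Console, and the methods name the RMA-Sketch procedure of the APT suite. The labels give 4 to 5 mice per pool and the methods 5. Arrays were grouped by genotype and diet as the labels give them. Of 35556 probe sets, 21789 had 1 gene name in the platform annotation, which can be old, 1621 had several and 12146 had none. Gene levels are means over the probe sets that name 1 gene alone. *Pcna* has 2 probe sets that differ by a constant, so the second adds no measurement.

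Log2 ratios of 2 arrays were computed for 4 comparisons, with 1 more, cKO-HFD over WT-CT, added after seeing the data. A call was a 1.5-fold difference, the size by which the study picked genes in cKO-CT versus WT-CT, used here for every comparison. Counts and medians were set beside those of all 19938 genes and of the *Olfr* genes, with no test. The members and lists were chosen with earlier results of these data known. Every member is named. Levels on all arrays are given for members called in a comparison, for *Mki67*, *Top2a*, *Cdk1*, *Mcm2* and *Pcna*, and for others chosen after their values were seen. Of the other cell cycle lists, the genes called in a comparison are named. For the cell type lists only some of the called genes are named. *Ccnd1* and *Mybl2* were named outside these rules.

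The alternatives were the highest probe set of a gene, probe sets with several names, an *Olfr* background filter, a floor of 7 on the mean log2 level, a size of 2-fold, median centring and cyclic loess (span 0.7, 3 iterations). With no replicate spread, a median was called moved by over 0.1, and a count by over 1.5 times. The calls, ratios and gene means were tested on simulated data with differences of 2-fold and more, and the other steps were not. Computation ran in Python 3.11.15 (pandas 2.3.3, numpy 2.4.6, and for plots matplotlib 3.10.9). Cyclic loess came from limma 3.58.1 in R 4.3.3.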

Additional observations from a re-analysis of the deposited data

Results flagged for a closer look

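The skeletal muscle markers moved in opposite directions with diet in the 2 genotypes. Their median log2 ratio over 14 genes was 1.74 in WT-HFD over WT-CT and -2.32 in cKO-HFD over cKO-CT. With 1 array per group the difference was not tested, and the part of muscle RNA in the levels of the proliferation genes was not tested. In the same comparisons the medians of the proliferation genes were 0.08 and 0.25.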

How the results depend on the processing

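The counts of proliferation genes called and their medians were the same, within the tolerances, with the highest probe set of a gene, with probe sets of several names and with median centring, in all 15 values each. No gene past 1.5-fold reversed, but medians and ratios near 0 changed sign, as given next. After cyclic loess, 1 gene in place of 2 was higher in cKO-HFD over cKO-CT (*Ccna2*), and in that comparison *Kif11* had -0.030, *Ttk* -0.016 and *Mcm4* -0.056 in place of 0.080, 0.060 and 0.017. Among the 16 genes that passed the *Olfr* background anywhere, 0 were lower in cKO-CT over WT-CT and 0 in cKO-HFD over WT-CT, since *Cdc6* falls out, 1 was higher in cKO-HFD over cKO-CT, and the median of cKO-CT over WT-CT was 0.071 in place of -0.063. With a floor of 7 on the mean log2 level only *Pcna* was left, with 0 calls and ratios of 0.23, 0.33, -0.23, -0.34 and -0.0050 in the 5 comparisons, against medians of -0.063, 0.081, 0.25, 0.085 and 0.13 over the 41 genes, so each but the diet difference in WT changed sign. At 2-fold, 0 genes were higher or lower in any comparison.

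Over all genes, the counts higher and lower were 327 and 303 in cKO-CT over WT-CT, 631 and 532 in WT-HFD over WT-CT, 362 and 432 in cKO-HFD over cKO-CT, 207 and 420 in cKO-HFD over WT-HFD, with 670 and 680 for cKO-HFD over WT-CT. At 2-fold they were 24 and 37, 163 and 129, 37 and 112, 18 and 181, and 107 and 195. With the floor of 7 they were 188 and 42, 320 and 269, 52 and 218, 48 and 170, and 360 and 355 of 5362 genes. With the *Olfr* filter, of 12486 genes, 161 were lower in cKO-CT over WT-CT, 166 higher in cKO-HFD over cKO-CT and 117 higher in cKO-HFD over WT-HFD.

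No paired analysis was possible because each group has 1 array and the labels carry no replicate numbers. The spread between mice is not seen in pooled RNA. Signal near background limits most of these genes, and a ratio under 1.5-fold does not show that the levels were equal.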
